A study of Homo sapiens with 12 samples.

Results

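miR-340 and miR-224 are 2 human microRNA (miRNA) hairpins whose 5p strands were nearly lost in HEK293T cells, and much less lowered in HCT116 cells, when DICER lacked its double-stranded RNA-binding domain (dsRBD). Both arms of both hairpins were followed, so the members are hsa-miR-340-5p, hsa-miR-340-3p, hsa-miR-224-5p and hsa-miR-224-3p (written below without the species prefix), 4 of the 1494 miRNA names listed for both lines. They were chosen by their measured log2 fold change with dsRBD deletion, much more negative in HEK293T, so the values of that contrast are given as a description with no test. The line difference in that contrast was −5.09 for miR-340-5p and −4.24 for miR-224-5p on the log2 scale, sizes that the choice itself favours. It was smaller for miR-340-3p, which was far below WT in both lines. It cannot be judged for miR-224-3p, which had at most 3 reads in any HEK293T library.

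The study asks which features of a double-stranded RNA decide how DICER cuts it. Small RNA was read by AQ-seq, a sequencing protocol built to reduce ligation bias, from 100 µg of total RNA per library with 30 spike-in RNAs. The cells were HCT116, which comes from a human colon cancer, and HEK293T, which comes from embryonic human kidney and carries the SV40 large T antigen. Each line had 3 groups of 2 libraries, 12 libraries in all: cells rescued with wild-type DICER (WT), with DICER lacking its dsRBD (dsRBD deletion), or with a DICER form that the labels name AA without saying what it changes. Every group is a rescue in the labels' words, the WT controls included. The labels do not say what became of each line's own DICER, how the rescue forms were delivered, or whether a group is 1 clone.

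DICER cuts a hairpin precursor near its loop and releases a duplex of a 5p and a 3p strand, and one or both strands are kept by an Argonaute protein. The dsRBD lies at DICER's C-terminal end and contacts the stem of the precursor. Both strands leave the same precursor, and which strand is kept, and for how long, is settled afterwards. miR-340-5p is the more abundant arm of its hairpin and is known as a repressor of cell migration in several tumours. miR-224-5p is the dominant arm of its hairpin and is often raised in liver cancer.

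The mature sequences are shown because each arm is counted under its own name, and the seed decides which targets it pairs with. Bases 2 to 8, the seed, are in capitals, 5′ to 3′, from RefSeq on GRCh38.p14, where all 4 members were found.
hsa-miR-340-5p: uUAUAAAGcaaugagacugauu
hsa-miR-340-3p: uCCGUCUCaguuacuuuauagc
hsa-miR-224-5p: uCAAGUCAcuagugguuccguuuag
hsa-miR-224-3p: aAAAUGGUgcccuagugacuaca

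No seed is shared between the members. The seed of miR-340-3p occurs in 1 other listed name, miR-6827-3p, which had a mean of 1.004 CPM over the 12 libraries. The other 3 seeds occur in no other name with a RefSeq sequence. Listed names without such a sequence were not checked. miR-340-5p is rich in A and U, which make up 72.7% of its bases, against a median of 47.8% over the 1313 names listed for both lines that have a RefSeq sequence. The other arms hold 59.1% (miR-340-3p), 56% (miR-224-5p) and 56.5% (miR-224-3p).

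The hairpins are shown because DICER cuts them at the loop-side ends of the arms. The 2 arms are in capitals and all 3 hairpins are written on their own strand; miR-452, the neighbour of miR-224 in the same host gene, is given for comparison.
miR-340 hairpin: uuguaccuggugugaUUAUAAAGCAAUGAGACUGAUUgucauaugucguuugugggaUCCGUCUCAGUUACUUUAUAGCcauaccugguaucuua
miR-224 hairpin: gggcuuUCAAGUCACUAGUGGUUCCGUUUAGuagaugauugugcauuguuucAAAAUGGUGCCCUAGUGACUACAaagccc
miR-452 hairpin: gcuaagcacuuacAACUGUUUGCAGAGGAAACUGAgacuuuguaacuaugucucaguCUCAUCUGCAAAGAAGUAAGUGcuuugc

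The miR-340 hairpin lies at chr5:180015303-180015397 on the minus strand (GRCh38.p14), in an intron of RNF130, a ubiquitin ligase gene. The miR-224 hairpin lies at chrX:151958578-151958658, also on the minus strand, in an intron of the coding transcripts of GABRE, which encodes the epsilon subunit of the GABA-A receptor. A retained-intron transcript of GABRE covers it. miR-452 lies 969 bases away at chrX:151959628-151959712 on the same strand and in the same gene. The arms of miR-340 are 20 bases apart and those of miR-224 are 21 bases apart, against a median of 16 bases (10th to 90th percentile 12 to 25.9) over 412 hairpins with both arms listed for both lines. Folded by ViennaRNA, the 95-base miR-340 hairpin reached −35.8 kcal/mol and the 81-base miR-224 hairpin −37.3 kcal/mol, near the median of −38.5 kcal/mol.

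Libraries held 824987 to 4498886 miRNA reads, fewest with dsRBD deletion in both lines, and spike-ins made up 0.272% to 3.54% of reads. Levels are CPM, the reads of a name relative to all miRNA reads of its library, with library sizes scaled by TMM, which assumes that most names do not change. A count of 0 allows up to 3 reads, 0.755 to 3.10 CPM depending on the library. Epithelial markers were present in both lines, miR-200c-3p at a median of 49.9 CPM in HCT116 and 23.0 CPM in HEK293T. miR-194-5p, abundant in gut and kidney, had medians of 278 and 1096 CPM (n = 6 libraries each). Read counting cannot tell fewer cells that make a miRNA from less of it per cell.

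With dsRBD deletion, miR-340-5p was nearly lost in HEK293T and, relative to other miRNAs, stayed near its WT level in HCT116. In HEK293T the 2 WT libraries held 1577 and 4287 reads of it, 559 and 1254 CPM, and the deletion libraries 15 and 25 reads, 13.2 and 19.1 CPM. Both deletion libraries lay far below both WT libraries. The pooled WT level was 57.3-fold that with deletion (95% exact interval 42.0 to 80.3, counting error only), a log2 fold change of −5.79 ± 0.45 (SE), the 26th lowest of 626 names tested in that line.

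In HCT116 the WT libraries held 396 and 752 CPM of miR-340-5p and the deletion libraries 429 and 422 CPM. The groups overlapped: both deletion libraries fell between the WT libraries. The log2 fold change was −0.43 ± 0.50, 336th lowest of 795 names, and it rested on the second WT library, without which it was 0.02. Without the first WT library it was −0.95.

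The other strand of the same duplex, miR-340-3p, had the same direction of difference between the lines at a much smaller size. In HCT116 its WT libraries held 112 and 124 CPM and its deletion libraries 33.1 and 34.2 CPM. Both deletion libraries were far below WT, with a log2 fold change of −1.80 ± 0.18 and a WT level 3.47-fold that with deletion (interval 2.80 to 4.36). In HEK293T the WT libraries held 80.5 and 79.3 CPM and the deletion libraries 9.72 and 5.36 CPM, from 11 and 7 reads. Here too the groups stood apart, with a log2 fold change of −3.42 ± 0.37 and a WT level 10.8-fold that with deletion (interval 6.77 to 18.4).

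miR-224-5p showed the pattern of miR-340-5p, with less spread between its WT libraries. In HEK293T it held 76.2 and 90.1 CPM with WT, and 0.883 and 3.83 CPM with deletion, which are 1 read and 5 reads. Pooled, 523 WT reads stood against 6 deletion reads, a 34.1-fold level with a wide interval of 15.5 to 93.2, and the log2 fold change was −5.05 ± 0.46. The first of these deletion libraries lay below the 2.65 CPM that 3 reads would give, so the size of the fall is loosely known.

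In HCT116 miR-224-5p held 478 and 545 CPM with WT and 360.5 and 354 CPM with deletion. The groups did not overlap but stood close: the WT level was 1.43-fold that with deletion (interval 1.33 to 1.53) and the log2 fold change −0.52 ± 0.14. In that line miR-224-5p thus lay near miR-340-5p in its response, at rank 326 of 795 from the lowest.

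miR-224-3p, the minor strand of its duplex, was measurable in HCT116 alone. There it held 11.3 and 14.8 CPM with WT and 16.5 and 22.6 CPM with deletion, from 16 to 49 reads, so both deletion libraries lay above both WT libraries (log2 fold change 0.63 ± 0.29). In HEK293T it had 3 reads and 1 read with WT, and 0 reads and 1 read with deletion. All these counts are at or under 3 reads and no fold can be given.

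CPM of the deletion and WT libraries did not overlap for 3 of 4 members in HCT116 and for all 3 that were tested in HEK293T. The same was true of 82.5% and 89.0% of the names tested in those lines, where 62.1% and 75.6% passed the edgeR quasi-likelihood test at an adjusted p of 0.05. These shares come from the contrast that chose the members, and nothing is read from them.

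**Figure D1:**
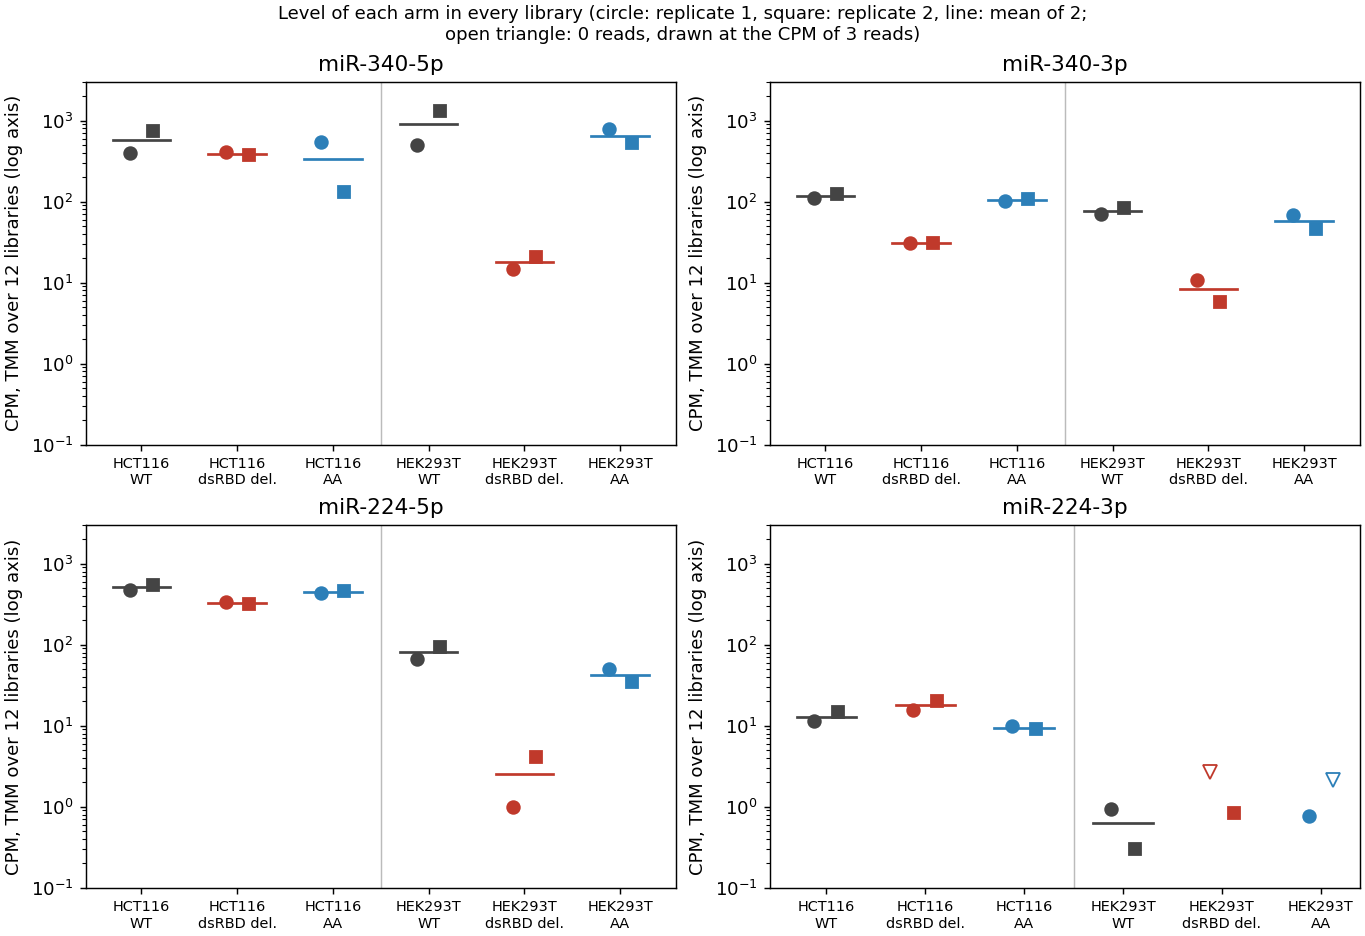
Level of each arm in every library (log axis, CPM scaled by TMM over all 12 libraries) by line and DICER form; circles are replicate 1, squares replicate 2, lines the mean of 2, and open triangles 0 reads drawn at the CPM of 3 reads. With dsRBD deletion both 5p arms are near the bottom in HEK293T and close to their WT level in HCT116, while miR-340-3p is below WT in both lines.

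Fitted over all 12 libraries, the line difference in the deletion effect (HEK293T minus HCT116) was −5.09 ± 0.73 for miR-340-5p and −4.24 ± 0.49 for miR-224-5p, the 12th and 24th lowest of 844 names. It was −1.30 ± 0.44 for miR-340-3p, 160th. For miR-224-3p the fitted value has no meaning at 0 to 3 reads in HEK293T. The median over all names was 0.34, and 34.8% of names passed the test of this difference in either direction. Leaving out 1 library at a time gave −5.77 to −4.20 for miR-340-5p and −5.59 to −3.51 for miR-224-5p.

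**Figure D2:**
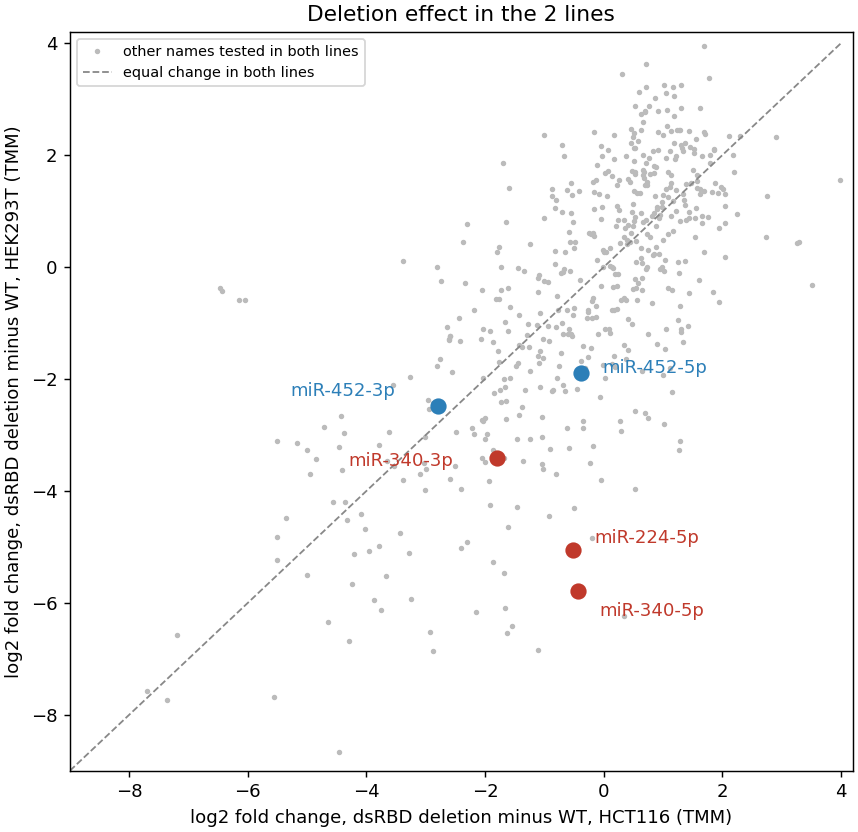
log2 fold change with dsRBD deletion in HCT116 (x axis) and HEK293T (y axis) for the 539 names tested in both lines, with the dashed line marking an equal change. miR-340-5p and miR-224-5p lie far below the line at −0.43 and −5.79 and at −0.52 and −5.05. miR-340-3p, at −1.80 and −3.42, and miR-452-5p, at −0.39 and −1.89, lie closer to it at about the same distance. miR-452-3p lies slightly above it, at −2.79 and −2.49.

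How far each arm lay below WT depended on the scaling, and the gap between the lines in the 5p arms moved less, from −5.78 to −4.94 for miR-340-5p and from −4.96 to −4.12 for miR-224-5p over the scalings. Spike-in scaling, which does not assume that most names hold their level, moved the median deletion effect of all names from −0.01 to −1.78 in HCT116 and from −0.07 to −1.53 in HEK293T. On that scale all 4 members were below WT in HCT116, miR-340-5p by −2.29, miR-340-3p by −3.60, miR-224-5p by −2.33 and miR-224-3p by −1.15. The rise of miR-224-3p in CPM is thus a rise relative to other miRNAs. In HEK293T the values were −7.25, −4.86 and −6.48 for the 3 tested members, and the line differences were −4.94 (miR-340-5p), −1.25 (miR-340-3p) and −4.12 (miR-224-5p). With library totals alone, miR-340-5p and miR-224-5p came to 0.11 and 0.01 in HCT116, where the median of all names came to 0.52.

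Measured against each of the 30 spike-ins alone, every tested member was below its WT level with deletion in both lines. For miR-340-5p the log2 shifts ran from −8.78 to −5.97 in HEK293T and from −2.63 to −1.14 in HCT116. For miR-224-5p they ran from −8.56 to −5.74 and from −2.78 to −1.30. Those of miR-340-3p ran from −6.53 to −3.72 in HEK293T and from −4.08 to −2.59 in HCT116. The width of each range comes from the spike-ins alone. It does not measure the spread between libraries or the counting error of a member. These shifts come from the contrast that chose the members and are a description.

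The balance of the miR-340 arms moved in opposite directions in the 2 lines. In HCT116 the 5p arm made up 78.0% and 85.8% of the hairpin's reads with WT and 92.8% and 92.5% with deletion. Both deletion libraries were higher. In HEK293T it made up 87.4% and 94.1% with WT, and 57.7% (95% exact interval 36.9% to 76.6%) and 78.1% (60.03% to 90.7%) with deletion, on 26 and 32 reads. Both deletion libraries were lower. On the log2 scale of the 5p to 3p ratio the shift was 1.44 ± 0.46 in HCT116 and −2.26 ± 0.62 in HEK293T, where the median of all hairpins was 0.87 and 0.37 and 62.4% of 229 and 57.8% of 180 hairpins passed. These shifts share the libraries that chose the members and were not tested.

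For miR-224 the 5p share stayed high but was lower with deletion in HCT116. It was 97.7% and 97.4% there with WT and 95.6% and 94.0% with deletion, a log2 ratio shift of −1.14 ± 0.33. That was the 17th lowest of 229 hairpins, whose median shift was 0.87, and it was not tested. In HEK293T the deletion libraries held 1 of 1 and 5 of 6 reads as 5p, too few to place the share.

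**Figure D3:**
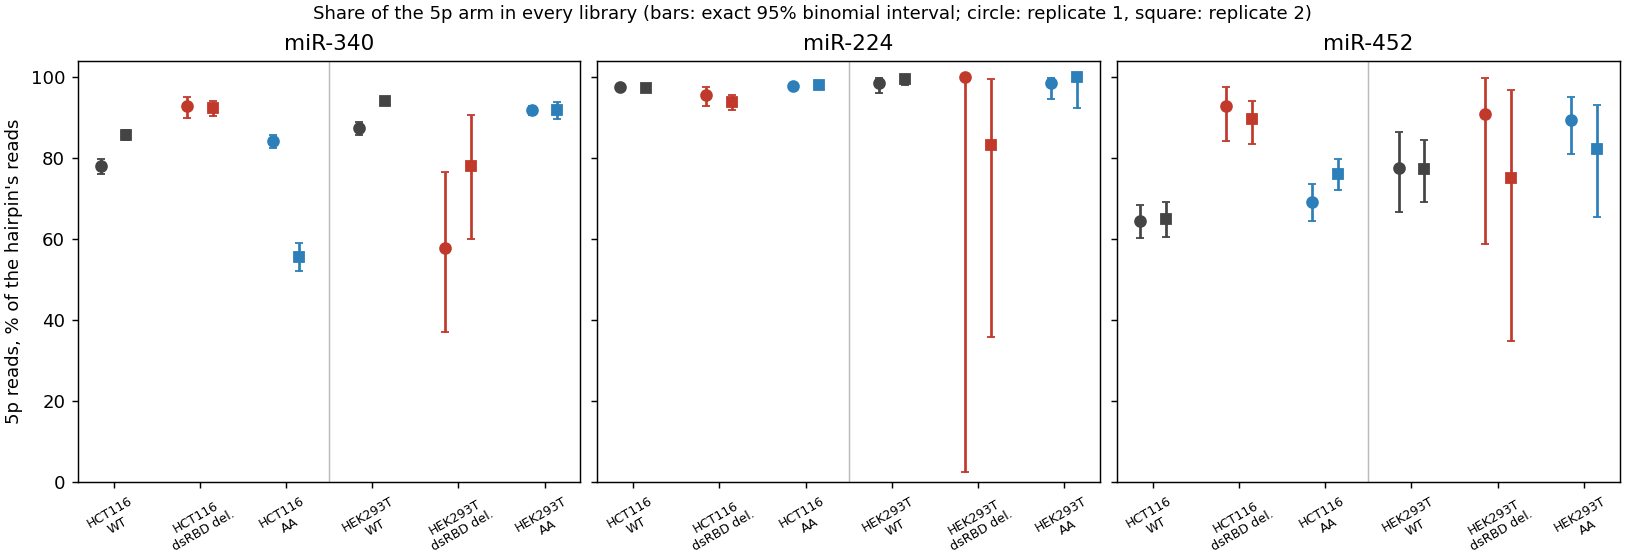
Share of the 5p arm among the reads of each hairpin in every library, in percent, with exact 95% binomial intervals; circles are replicate 1 and squares replicate 2. With dsRBD deletion the miR-340 share is above WT in HCT116, at 92.8% and 92.5%, and below it in HEK293T, at 57.7% and 78.1%, where the intervals are wide.

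The AA libraries took no part in the choice of the members, but the WT libraries did, so the tests of AA against WT are not independent of it: a member whose WT libraries happened to be high is more likely to be chosen and to lie lower with AA. In HEK293T miR-224-5p held 47.8 and 33.0 CPM with AA, below 76.2 and 90.1 CPM with WT. The log2 fold change was −1.01 ± 0.28 (edgeR quasi-likelihood test, adjusted p = 0.0263), lower in 2 of 2 libraries. It was the only one of 3 tested members to pass, where 21.4% of names passed. The call was lost without either WT library, at −1.12 and −0.98, without the second AA library, at −0.73, and with upper-quartile scaling, at −0.57. The adjusted p ran from 0.0015 to 0.205 over 12 alternatives.

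The other tested members did not pass with AA in HEK293T under TMM scaling. miR-340-5p held 743 and 499 CPM with AA, overlapping its WT range, a log2 fold change of −0.54 ± 0.33 (edgeR adjusted p = 0.275). Without the first WT library it was −1.001 and passed (adjusted p = 0.0259, range over 12 alternatives 0.0259 to 0.905); without the second it was 0.06. miR-340-3p held 65.6 and 43.8 CPM, both below WT, at −0.52 ± 0.26 (edgeR adjusted p = 0.187, range over 12 alternatives 0.0317 to 0.847). With spike-in scaling, where 31.6% of names passed and the median of all names moved from −0.11 to −0.58, both passed, miR-340-5p at −0.998 (edgeR adjusted p = 0.0384) and miR-340-3p at −0.98 (0.0317). miR-224-3p had 2 reads and 0 reads and did not enter the test within this line.

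In HCT116 none of the 4 members passed with AA, where 7.42% of 795 names passed and 161 had an unadjusted p under 0.05. miR-340-5p held 547 CPM in one AA library, within its WT range, and 132 CPM in the other, below both WT libraries. Its log2 fold change of −0.76 ± 0.49 (edgeR adjusted p = 0.441) depended on single libraries of both groups. It was −2.11 without the first AA library and −0.08 without the second. Leaving out the first WT library gave −1.16, and leaving out the second gave −0.25. The adjusted p ran from 3.5e-06, with spike-in scaling, to 0.962 over 12 alternatives.

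miR-340-3p held 102 and 106 CPM with AA in HCT116 (−0.18 ± 0.15), miR-224-5p 442 and 454 CPM (−0.19 ± 0.13), and miR-224-3p 9.88 and 9.10 CPM (−0.45 ± 0.28). edgeR's adjusted p was 0.552, 0.469 and 0.406. Those AA libraries lay below both WT libraries, so 3 of 4 members did not overlap between AA and WT, as did 53.8% of names. In HEK293T it was 2 of 3 members and 59.6% of names. With spike-in scaling, where 34.2% of names passed and the median of all names moved from −0.03 to −0.63, all 4 members passed in HCT116, at −1.42 (miR-340-5p), −0.79 (miR-340-3p), −0.81 (miR-224-5p) and −1.06 (miR-224-3p).

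The AA effect was not shown to differ between the lines for any member that could be measured in both. The line difference was −0.71 ± 0.31 for miR-224-5p (edgeR adjusted p = 0.268), and 3.91% of 844 names passed. It was −0.22 ± 0.31 for miR-340-3p (0.819) and 0.29 ± 0.60 for miR-340-5p (0.886), both adjusted p from edgeR. For miR-224-5p library totals gave −1.06, which passed (adjusted p = 0.0258, range over 15 alternatives 0.0258 to 0.607). Without the first HCT116 AA library that of miR-340-5p was 1.63 and passed (adjusted p = 0.0011, range 0.0011 to 0.9997).

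**Figure D4:**
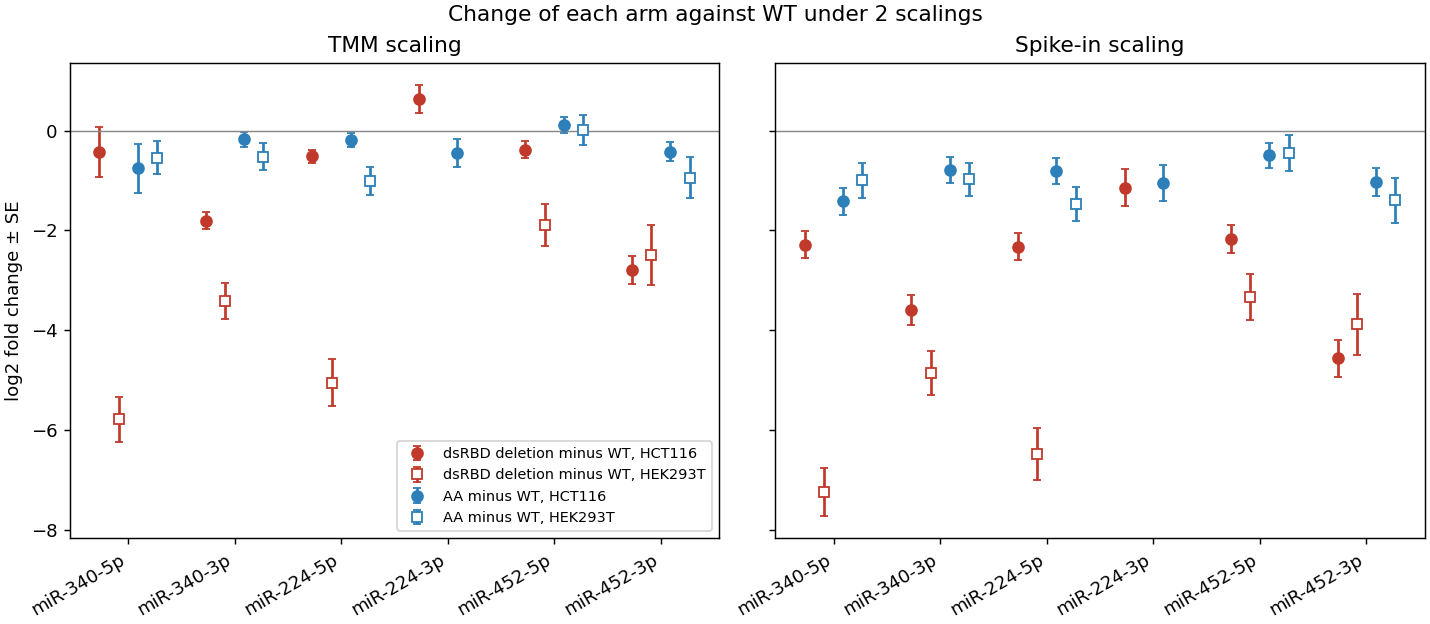
log2 fold change against WT with its SE for each tested arm, under TMM scaling (left) and spike-in scaling (right); red is dsRBD deletion, blue is AA, filled circles are HCT116 and open squares HEK293T. On both scales the red squares of miR-340-5p and miR-224-5p lie far below the red circles, and the blue points of AA lie closer to 0 than those squares.

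miR-224 was the more line-specific hairpin without any deletion. With AA, in 4 libraries that the choice did not use, miR-224-5p was lower in HEK293T by a log2 difference of −3.37 ± 0.24 (edgeR adjusted p = 1.4e-11). Both HEK293T AA libraries lay below both HCT116 AA libraries, and the call held under all 11 alternatives. miR-224-3p had 2 reads and 0 reads in the HEK293T AA libraries and 30 and 31 reads in those of HCT116, and is given without a test since it passed the filter through HCT116 alone. Between these groups 75.7% of 844 names differed. In the WT libraries, given as a description, the difference of miR-224-5p was −2.66 ± 0.22, where 73.2% of names differed.

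miR-340 differed less. miR-340-3p was lower in HEK293T with AA, at −0.84 ± 0.23 (edgeR adjusted p = 0.0024), but not past the threshold without the second HEK293T AA library, at −0.55, or with upper-quartile scaling, at −0.45 (range over 11 alternatives 1.2e-13 to 0.0657). miR-340-5p came to 0.94 ± 0.43 (edgeR adjusted p = 0.0532). It passed with DESeq2 size factors in edgeR (1.04, adjusted p = 0.0219), upper quartile (1.31), no filter (0.97), only the groups compared (0.91), and without the second HEK293T AA library (1.25) or the first HCT116 AA library (2.24). Without the second HCT116 AA library it was 0.16, and with spike-in scaling it turned to −0.70 and passed in the other direction (range over 11 alternatives 4.8e-12 to 0.601). That scaling moved the median of all names between the lines with AA from −0.43 to −2.04, so −0.70 lay above the median. With WT the values were −0.61 ± 0.22 for miR-340-3p and 0.65 ± 0.43 for miR-340-5p, and without the second HEK293T WT library the latter was −0.17.

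Placed in order over the 6 groups on the 12-library scale, miR-340-5p was highest in HEK293T with WT (898 ± 570 CPM, SD, n = 2), followed by HEK293T with AA (648 ± 181), HCT116 with WT (571 ± 248), deletion (391 ± 17.2) and AA (339 ± 291). These 5 groups overlapped with their neighbours in the order. HEK293T with deletion was last at 17.7 ± 4.31 CPM and overlapped with none. For miR-224-5p no neighbours overlapped: HCT116 held 509 ± 44.9 with WT, 448 ± 10.9 with AA and 329 ± 14.9 with deletion, then HEK293T 80.4 ± 18.4, 42.2 ± 11.01 and 2.57 ± 2.25. The order was thus line first for miR-224-5p, whereas miR-340-3p ran from 117 ± 8.17 CPM (HCT116 WT) to 8.30 ± 3.50 CPM (HEK293T deletion) with the HCT116 deletion group, 30.9 ± 0.271 CPM, below every HEK293T group but that one.

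The 5p to 3p balance did not pass the test with AA for either hairpin. In HCT116 the miR-340 5p share was 84.2% in one AA library and 55.5% in the other, a log2 ratio shift of −0.82 ± 0.41 (edgeR adjusted p = 0.235), where 13.5% of 229 hairpins passed. It was −1.89 without the first AA library (adjusted p = 2.9e-05) and 0.21 without the second (range over 10 alternatives 2.9e-05 to 0.937). In HEK293T both AA libraries held 91.9%, a shift of 0.11 ± 0.34 (adjusted p = 0.887, edgeR), where 10.6% of 180 hairpins passed. For miR-224 in HCT116 the shares were 97.8% and 98.0%, a shift of 0.26 ± 0.31 (adjusted p = 0.699, edgeR).

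miR-340-5p stood out by the distance between libraries of 1 group. Among the 265 names tested in both lines with at least 100 CPM, it had the widest gap in the HCT116 AA group, 2.03 on the log2 scale against 1.05 for the next name, miR-218-1-3p, and a median of 0.07. In the HEK293T WT group its gap of 1.39 was again the widest, ahead of miR-28-3p at 1.21 and a median of 0.25, and in the HCT116 WT group its 0.92 was the third widest. In the HCT116 deletion group, in contrast, its gap of 0.09 ranked 219th.

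The gap was not shared by the partner strand. miR-340-3p differed between the same libraries by 0.06 (HCT116 AA), 0.21 (HEK293T WT) and 0.14 (HCT116 WT). miR-224-5p differed by 0.05, 0.47 and 0.18. What moved miR-340-5p alone was not tested.

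**Figure D5:**
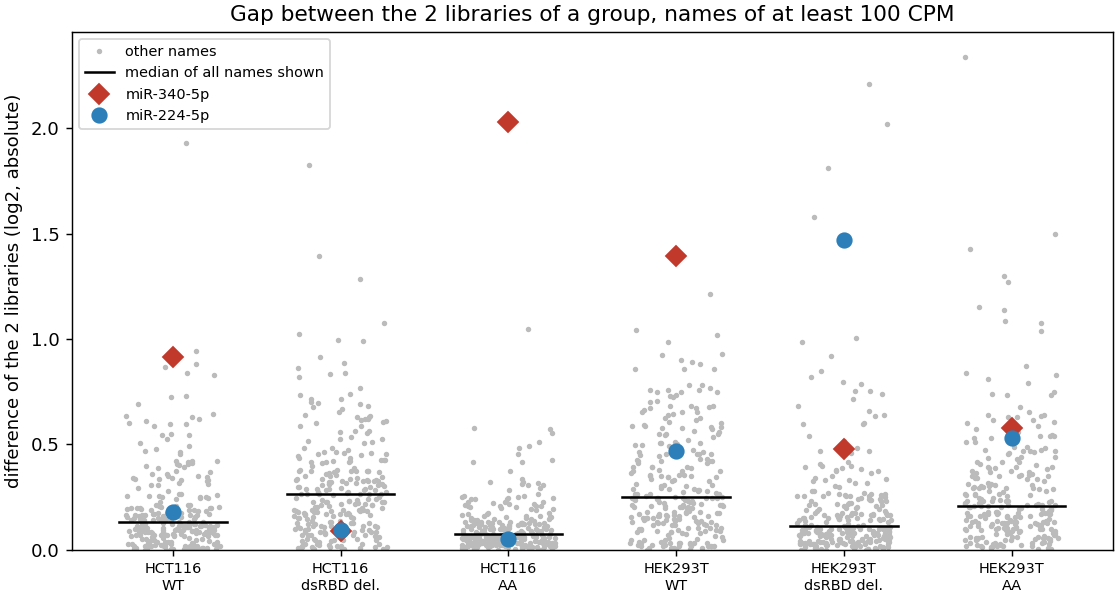
Absolute log2 difference between the 2 libraries of each group for the 265 names tested in both lines with at least 100 CPM on average (points, spread sideways at random), with the median as a bar. miR-340-5p (diamonds) has the widest gap in the HCT116 AA group, 2.03, and in the HEK293T WT group, 1.39, and miR-224-5p (circles) has its widest gap in the HEK293T deletion group, at 1 read and 5 reads.

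miR-452 is read out from the same gene as miR-224 and was not part of the choice, though its values come from the same libraries and contrasts. In HCT116 miR-452-3p held 49.4 and 53.0 CPM with WT and 5.16 and 8.70 CPM with deletion, the latter from 5 and 15 reads. This was a fall of −2.79 ± 0.28 (edgeR adjusted p = 9.7e-06), where 62.1% of names passed. In the same line miR-452-5p held 89.7 and 98.2 CPM with WT and 68.2 and 74.8 CPM with deletion, −0.39 ± 0.17 (edgeR adjusted p = 0.0694, range over 12 alternatives 1.7e-14 to 0.638).

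In HEK293T miR-452-5p fell with deletion, from 20.9 and 28.1 CPM to 8.83 and 4.59 CPM, the latter from 10 and 6 reads. The log2 fold change was −1.89 ± 0.42 (edgeR adjusted p = 0.0017), where 75.6% of names passed. miR-452-3p had 17 and 28 reads there with WT and 1 read and 2 reads with deletion, a WT level 5.86-fold that with deletion (interval 1.88 to 29.5); it passed the filter through WT alone, so no test in HEK293T is given for it. The line difference was −1.21 ± 0.48 for miR-452-5p (edgeR adjusted p = 0.0536, range over 15 alternatives 0.0023 to 0.396). The line difference of the neighbour's 5p arm did not pass and had the sign of that of miR-224-5p, −1.21 beside −4.24, with no test between them.

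The arm balance of miR-452 in HCT116 moved to 5p with deletion, from 64.5% and 64.9% with WT to 93.0% and 89.6% (log2 ratio 2.42 ± 0.41, edgeR adjusted p = 2.2e-05). In that line 62.4% of 229 hairpins passed, and the median shift of 0.87 was also to 5p. The HEK293T shares were 77.6% and 77.4% with WT and 90.9% and 75% with deletion. Those deletion shares rest on 1 read and 2 reads of the 3p arm, too few to place them. With AA miR-452-5p did not pass in either line, at 0.11 in HCT116 and 0.02 in HEK293T (edgeR adjusted p = 0.744 and 0.984). miR-452-3p came to −0.43 in HCT116 (edgeR adjusted p = 0.237, range over 12 alternatives 0.0017 to 0.784), and to −1.03 with spike-in scaling, which passed. Like miR-224-5p, miR-452-5p was lower in HEK293T with AA, by −1.96 ± 0.27 (edgeR adjusted p = 7.2e-07). Of the other miRNAs of GABA receptor genes on the X chromosome, miR-105 and miR-767 in GABRA3, no listed arm had more than 4 reads in a library.

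Names with the most similar profile were ranked by the root mean square difference in log2 CPM over the 12 libraries, after each line's mean was removed. This measure contains the contrast that chose the members and is a description. For miR-340-5p the nearest of 264 names was miR-224-5p at 0.72, then miR-106b-5p at 0.81 and miR-425-5p at 0.83, against a median of 1.87. For miR-224-5p they were miR-106b-5p at 0.38, miR-146b-5p at 0.40 and miR-218-5p at 0.42, against a median of 1.52. For miR-340-3p they were miR-148a-3p at 0.27, miR-222-5p at 0.28 and miR-26a-5p at 0.30, against a median of 1.19 over 265 names. The lists of the 5p arms depended on the count added before the log, 2 here. With 0.5, miR-425-5p replaced miR-146b-5p for miR-224-5p and was its nearest name, at 0.51. For miR-340-5p, miR-93-5p replaced miR-425-5p, and the 3 names of miR-340-3p stayed the same.

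The deletion effects of these names can be set beside those of the members. miR-106b-5p, a miR-17 family member made from an intron of MCM7, had −0.50 in HCT116 and −4.30 in HEK293T. miR-425-5p had −1.61 and −4.65, miR-146b-5p −0.80 and −3.70, miR-218-5p −1.04 and −3.52, and miR-93-5p −1.54 and −6.42. The names nearest to miR-340-3p had −1.65 and −2.72 (miR-148a-3p), −1.94 and −3.82 (miR-222-5p), and −1.68 and −3.40 (miR-26a-5p). So the names nearest the 5p arms also had a larger effect in HEK293T than in HCT116, which the measure favours.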

How the data were processed

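The authors deposited raw read counts per miRNA name and spike-in, one table per library. Per the submitters' processing notes, cutadapt, BWA and bedtools were used with the builds hg38 and mm10. Versions, order and roles of these, the miRNA annotation, and the counting of reads that match several names were not given in the sources used here.

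Counts were analysed separately in each line and, for line differences, over the 1494 names listed for both. Names that passed filterByExpr (minimum count 10) entered TMM scaling and the tests of edgeR 4.0.16 (R 4.3.3, limma 3.58.1), a two-sided quasi-likelihood F test on group means, Benjamini-Hochberg adjusted over all names tested at 0.05. There were 795 such names in HCT116, 626 in HEK293T and 844 over both. The SE is the size of the log2 fold change divided by the square root of F. For arm use, edgeR's interaction between group and arm was tested, blocking on library, wherever 2 or more libraries held 10 or more reads of each arm. Fits were tested on simulated counts. Spike-ins were left out of library sizes. Intervals are exact (Clopper-Pearson or its conditional form for a ratio of counts) and cover counting error only, since reads without molecular identifiers are not independent molecules.

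Alternatives were DESeq2 1.42.0 size factors and Wald test, library totals, upper quartile, spike-in scaling, no filter, a replicate block, only the groups compared, and leaving out each library. Where 1 library was left in a group, it was assumed to vary like the other groups. Since the labels do not say whether replicates are separate cultures, a p-value here reflects only how far these libraries spread. Same-numbered libraries did not deviate together (correlations across names 0.147, −0.104 and −0.0487 in HCT116, −0.0258, −0.0675 and 0.0930 in HEK293T), so numbers were not used as pairs.

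The members and lists were chosen with earlier results of these data known. The names given were the 4 members and the other miRNAs of X-linked GABA receptor genes. Names of at least 100 CPM sharing a member's seed were sought among those with a RefSeq sequence, and none was found. Also given were the 3 names nearest each member tested in both lines in log2 CPM (prior count 2, with 0.5 as an alternative). The line markers, and names ranked beside miR-340-5p for library gaps, were added after values were seen. Hairpins were folded with ViennaRNA 2.7.2 and figures drawn with matplotlib 3.10.9.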

Additional observations from a re-analysis of the deposited data

Results flagged for a closer look

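The 5p share of miR-340 moved in opposite ways with dsRBD deletion in the 2 lines: by 10.8 percentage points in HCT116, where both deletion libraries lay above both WT libraries, and by −22.8 percentage points in HEK293T, where both lay below. The difference was not tested. It rests on 26 and 32 reads of the hairpin in the HEK293T deletion libraries, and on the contrast that chose the members.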

How the results depend on the processing

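Values here are log2 fold changes unless they are counts. With dsRBD deletion in HCT116, library totals gave 0.11 (miR-340-5p), −1.27 (miR-340-3p), 0.012 (miR-224-5p) and 1.17 (miR-224-3p), so both 5p arms changed sign. Spike-in scaling gave −2.29, −3.60, −2.33 and −1.15 in that order, which turned miR-224-3p. Upper quartile gave −1.52 and no filter −2.03 for miR-340-3p, and −0.22 and −0.75 for miR-224-5p. Leaving out 1 library gave −0.95 to 0.024 (miR-340-5p), −2.01 to −1.80 (miR-340-3p) and −0.74 to −0.50 (miR-224-5p). In HEK293T spike-in scaling gave −7.25 (miR-340-5p), −4.86 (miR-340-3p) and −6.48 (miR-224-5p), and leaving out 1 library −6.58 to −4.42 for miR-224-5p. The line difference was −2.04 for miR-340-3p with library totals. Without 1 library it ran from −5.59 to −3.51 (miR-224-5p) and −4.21 to 0.078 (miR-224-3p). The fitted range of miR-224-3p has no meaning as an effect, since this arm had 0 to 3 reads in HEK293T.

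With AA in HCT116, 59 names passed, 34 with upper quartile, 272 with spike-in scaling and 10 to 73 without 1 library. Spike-in scaling gave −1.42 (miR-340-5p), −0.79 (miR-340-3p), −0.81 (miR-224-5p) and −1.06 (miR-224-3p), all of which passed, and miR-340-5p also passed with no filter at −0.76 and ran from −2.11 to −0.082 without 1 library. In HEK293T 134 names passed and 54 to 136 without 1 library. Spike-in scaling gave −0.998 (miR-340-5p) and −0.98 (miR-340-3p), which both passed, upper quartile −0.57 for miR-224-5p, and leaving out 1 library −1.39 to −0.73 (miR-224-5p) and −1.001 to 0.060 (miR-340-5p). For the line difference with AA 33 names passed, and 78 with library totals, which gave −1.06 for miR-224-5p; without 1 library miR-340-5p ran from −0.45 to 1.63.

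Between the lines with AA, miR-340-5p was 1.04 with DESeq2 size factors, 1.31 with upper quartile, 0.97 with no filter, 0.91 with the groups compared only and −0.70 with spike-in scaling, all of which passed, and 0.16 to 2.24 without 1 library. miR-340-3p was −0.45 with upper quartile and −1.20 to −0.55 without 1 library. Spike-in scaling moved the median of all names from −0.43 to −2.04 with AA and from −0.39 to −2.02 with WT. With WT, spike-in scaling gave −1.12 (miR-340-5p), −2.29 (miR-340-3p), −4.35 (miR-224-5p) and −5.93 (miR-224-3p), library totals −0.35 for miR-340-3p, and upper quartile −0.18 for miR-340-3p and −2.23 for miR-224-5p. Without 1 library miR-340-5p ran from −0.17 to 1.25 and miR-224-3p from −5.24 to −3.67. The fitted WT values of miR-224-3p, −5.93 included, cannot be read as sizes. They rest on 3 reads and 1 read in the HEK293T WT libraries.

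Arm use with AA in HCT116 passed for 31 hairpins, 16 with no filter, 14 to 17 without 1 library and 9 with the replicate block; that of miR-340 ran from −1.89 to 0.21. In HEK293T 19 hairpins passed and 10 to 21 without 1 library. With the replicate block the AA fold change of miR-224-5p in HEK293T was −1.01, and the block changed no call of a member. The cause of each change was not tested. With 2 libraries a group and 0 to 25 reads of the members in the HEK293T deletion libraries, depth limits the size of their fall.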
